A study of Homo sapiens with 120 samples.

Results

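The 58 genes described here are the Wnt ligands, their receptors, their secreted antagonists and the genes known to respond to the pathway. They comprise 19 WNT ligands, 12 receptors (10 Frizzled genes, LRP5 and LRP6), 6 R-spondin and LGR genes, 10 secreted antagonists, 7 feedback targets and 4 TCF/LEF transcription factors. Members were chosen by gene symbol, and all 58 were found among the 62703 genes of the count table. The source names give the cells as H1, a widely used line of human embryonic stem cells. The growth protocol also mentions induced pluripotent stem cells. Unedited cells (WT) were compared with a line labelled KO and a line labelled ΔATG at day 0 and on days 1 to 5 of 3 protocols: BMP4, towards mesoderm; SMADi, a commercial neural induction medium with SMAD inhibitors, towards neuroectoderm; and Endo, a commercial definitive endoderm kit. Further cells, undifferentiated as far as the labels say, carried a vector, lncPRESS1, a ΔATG form of lncPRESS1 or lncSIRP, and were sampled at an early, middle and late stage. Because those constructs name lncPRESS1, a long noncoding RNA, KO is read here as a knockout of its gene LNCPRESS1 and ΔATG as the loss of a start codon in it. The labels do not define lncSIRP, the days of the stages or the number of clones, so genotype and clone cannot be told apart. Each of the 60 groups had 2 libraries, lettered a and b. Nothing in the labels says that these came from separate cultures, so every p-value measures the spread between libraries, which may be technical. What the commercial media contain, and hence whether a Wnt agonist was added, is not given in the sources used here.

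Wnt proteins are lipid-modified secreted ligands that bind Frizzled receptors together with the co-receptors LRP5 and LRP6. In the canonical branch this stabilises β-catenin, which joins TCF/LEF factors on DNA, whereas ligands such as WNT5A mostly act through branches that do not need β-catenin. R-spondins bind LGR receptors and thereby keep Frizzled receptors from removal by the ubiquitin ligases ZNRF3 and RNF43. DKK1, DKK2 and DKK4 act on the co-receptors, and SFRP, FRZB and WIF1 proteins act on the ligands. AXIN2, NKD1, NOTUM, ZNRF3 and RNF43 are induced by the pathway and restrain it, and SP5 is an induced transcription factor. In the early embryo canonical signalling is known for induction of the primitive streak and for posterior and dorsal patterning of neural tissue.

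To show where the core words bound by TCF/LEF factors lie before a transcription start, the 250 bases before it are printed for SP5 and DKK1, the members with the most matches, and for TCF7. TCF7 is 1 of 3 members with a single match, and its match lay nearest before a start. The words searched were CTTTGAA or CTTTGAT or CTTTGTA or CTTTGTT on both strands, in windows of 250 bases before and 50 after each start in RefSeq on GRCh38.p14. Capitals mark the words or their reverse complements, and no match printed overlaps another.
SP5, chr2:170715087-170715336, plus strand: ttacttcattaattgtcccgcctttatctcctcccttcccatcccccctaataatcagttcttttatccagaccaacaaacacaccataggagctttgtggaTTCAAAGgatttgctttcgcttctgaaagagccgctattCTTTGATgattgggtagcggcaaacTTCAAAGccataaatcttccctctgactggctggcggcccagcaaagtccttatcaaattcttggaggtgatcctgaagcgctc
DKK1, chr10:52314031-52314280, plus strand: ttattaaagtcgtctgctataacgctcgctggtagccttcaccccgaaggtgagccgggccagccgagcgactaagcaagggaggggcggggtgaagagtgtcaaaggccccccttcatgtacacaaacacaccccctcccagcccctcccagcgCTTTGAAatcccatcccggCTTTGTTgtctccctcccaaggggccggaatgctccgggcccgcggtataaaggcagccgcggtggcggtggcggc
TCF7, its second start, chr5:134123368-134123617, plus strand: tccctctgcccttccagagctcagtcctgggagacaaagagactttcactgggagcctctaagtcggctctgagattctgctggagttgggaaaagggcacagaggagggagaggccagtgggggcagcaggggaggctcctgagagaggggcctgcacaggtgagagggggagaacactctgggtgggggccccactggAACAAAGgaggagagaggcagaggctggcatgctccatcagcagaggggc
The SP5 window held 3 matches, at 148, 109 and 84 bases before the start. The DKK1 window held 2, at 95 and 76 bases before it, and that of TCF7 held 1. Among members, 39 had an entry, and 5 of their 48 windows (10.4%) held a match, against 4829 of 35116 windows of all genes (13.8%). The other 2 were the window of WNT3, where the word lay past the start, and the window at the second start of TCF7L2. SP5, DKK1 and TCF7 differed in their values across the protocols, as given below, and a match in this window is a description of letters only.

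Levels are given in CPM, the count unit scaled to library size, and, between genes, in CPM per kilobase of exon. Library totals ran from 38298440 to 71220396 counts in the 96 libraries of the differentiation set and from 40113672 to 65466258 in the 24 libraries of the construct set. LNCPRESS1 was read at 21.4 and 40.6 CPM in the WT libraries at day 0, at 13.2 and 5.60 in the KO libraries and at 53.1 and 35.2 in the ΔATG libraries, so KO libraries were lower without being at 0. In the construct set it averaged 29.6, 42.1 and 32.7 CPM in vector libraries from the early to the late stage, and 43.0, 56.9 and 152 CPM in the libraries labelled lncPRESS1. Its mean in the libraries labelled lncSIRP was 159 CPM at the early stage and 13.5 CPM at the middle stage. The early and middle libraries labelled lncPRESS1 and lncSIRP therefore do not rank as their names would have it, and directions are drawn below for libraries as labelled. The LNCPRESS1 level is not given here for the ΔATG construct or for late lncSIRP, so those libraries too are taken by label alone. Markers of the intended tissues were present: on day 5 the WT sum over the mesoderm list was 272 CPM in BMP4, that over the neuroectoderm list 460.4 CPM in SMADi, and that over the endoderm list 13563 CPM in Endo. HAND1 is on the mesoderm list and also on a list for amnion or trophoblast, so the mesoderm sum cannot tell these tissues apart. A gene was called changed at an adjusted p under 0.05 in edgeR's quasi-likelihood test, with p-values adjusted by Benjamini-Hochberg over all genes tested. All 58 members were among the 25821 genes tested in the differentiation set, and 55 among the 23300 of the construct set. The members named are, in each role, those with the highest and the lowest fold changes among the called ones averaging 1 CPM or more; any other member named was chosen after its values were seen.

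In WT cells 52 of the 58 members reached a group mean of 1 CPM at some time, and every role had its own leaders. Among ligands the highest levels per length were those of WNT3, a canonical ligand required for streak formation, at 25.7 ± 0.266 CPM per kilobase (mean ± SD, n = 2 here and below) on day 1 of Endo, WNT5A at 24.2 ± 7.12 on day 4 of BMP4 and WNT8A at 20.0 ± 4.40 on day 3 of BMP4. The spreads of WNT3 and WNT5A at these peaks overlapped. Among receptors FZD5 stood far above the rest at 1172 ± 59.4 CPM per kilobase on day 5 of Endo, followed by FZD7 at 251 ± 3.91 on day 2 and FZD8 at 115 ± 1.68 on day 5 of the same protocol. LGR4 led the R-spondin and LGR genes at 61.1 ± 2.32 CPM per kilobase on day 5 of SMADi, ahead of LGR5 at 29.0 ± 1.53 on day 5 of Endo. RSPO3, the highest R-spondin in WT cells, reached 4.00 ± 0.134 CPM per kilobase on day 5 of SMADi. The 3 antagonists with the highest levels were close to each other: DKK4 at 364 ± 11.1 CPM per kilobase on day 2 of Endo, SFRP2 at 363 ± 2.43 on day 1 of SMADi and SFRP1 at 346 ± 0.822 on day 5 of Endo. Among feedback targets SP5 reached 161 ± 10.3 CPM per kilobase on day 1 of Endo, AXIN2 27.9 ± 1.30 on day 3 of Endo and NKD1 12.6 ± 1.90 on day 1 of Endo. TCF7L1, the family member best known as a repressor, led the TCF/LEF factors at 59.8 ± 0.908 CPM per kilobase on day 3 of SMADi, and LEF1, which is mostly an activator, peaked at 11.6 ± 0.610 on day 5 of BMP4. On GRCh38 with GENCODE 29 gene spans, WNT3 lies at chr17:46762506-46833154, WNT5A at chr3:55465715-55490539, WNT8A at chr5:138083892-138092365, FZD5 at chr2:207762586-207769563, LGR5 at chr12:71439770-71586310, SP5 at chr2:170715351-170718078 and LEF1 at chr4:108047545-108168956.

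**Figure D1:**
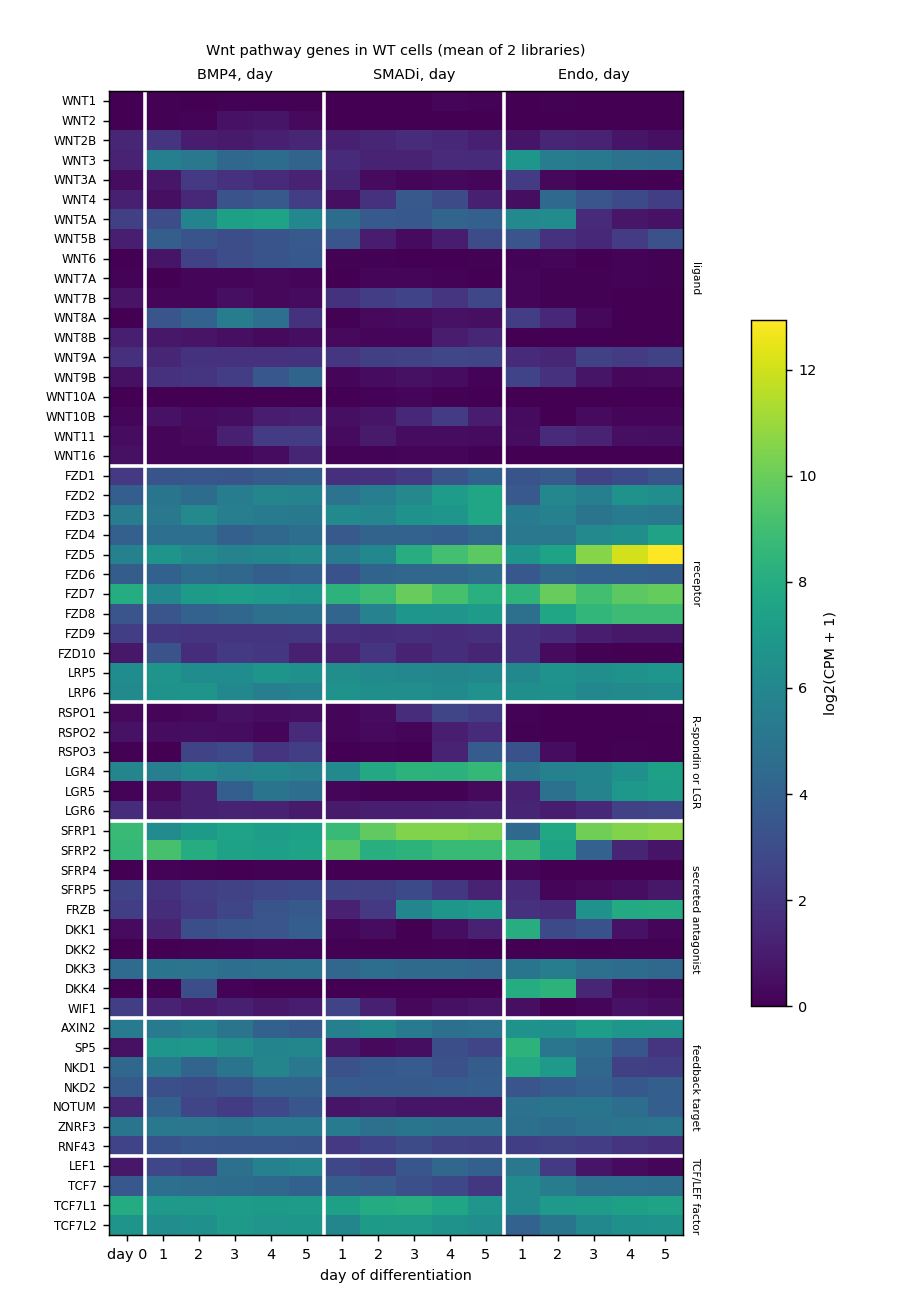
Mean level of each of the 58 members in the 16 groups of WT libraries, as log2(CPM + 1) on the colour scale, with members in rows ordered by role and day 0 and days 1 to 5 of the 3 protocols in columns. FZD5 is brightest late in Endo, DKK4 appears on days 1 and 2 of Endo, and WNT5A and LEF1 are highest late in BMP4.

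In BMP4 the ligands peaked on different days. On day 1 WNT3 had gone from 1.51 and 1.40 CPM in the day 0 libraries to 44.4 and 48.4 CPM (log2 fold change 4.99 ± 0.19, adjusted p = 2.73e-28). WNT8A, another canonical ligand of the streak, went from 0.0169 and 0.0527 to 10.7 and 8.69 CPM (8.04 ± 0.52, adjusted p = 5.48e-20). In both, the day 1 libraries lay far above the day 0 libraries, with no overlap. WNT5A rose later, from 4.55 and 4.55 CPM at day 0 to 55.2 and 58.9 CPM on day 2 and 217 and 142 CPM on day 4 (5.30 ± 0.27, adjusted p = 1.65e-23 on day 4). WNT6, a ligand of embryonic surface ectoderm, was barely read at day 0 (0.0339 and 0.0351 CPM) and stood at 10.4 and 11.5 CPM on day 5 (8.21 ± 0.35, adjusted p = 9.19e-30). WNT8A had by then come down from its day 3 mean of 41.8 CPM to 2.72 CPM, still above day 0 (6.18 ± 0.68, adjusted p = 1.35e-11). WNT8A thus peaked before WNT5A, and WNT6, which was called higher from day 1 on, peaked last. On day 1, 22 members rose and 13 fell, where 15.7% and 13.9% of all genes did so, and a fit on the compared libraries alone called 15 and 4. On day 5, 32 rose and 9 fell, against 22.9% and 22.2% of all genes, and the median log2 fold change was 0.77 over members and -0.0012 over all genes. Of the 19 ligands, 12 rose and 1 fell by day 5.

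Receptors moved in both directions in BMP4. FZD2 was read at 17.2 and 9.96 CPM at day 0 and 55.4 and 51.8 CPM on day 5 (1.98 ± 0.12, adjusted p = 3.40e-20). FZD7, the main Frizzled gene of undifferentiated stem cells, was at 272 and 246 CPM at day 0, 70.4 and 57.8 on day 1 and 115 and 107 on day 5 (-1.22 ± 0.14, adjusted p = 4.71e-11). The FZD2 libraries of day 5 were all above, and the FZD7 libraries all below, those of day 0. FZD1 rose (1.89 ± 0.17, adjusted p = 7.53e-14), and FZD10 rose on day 1 (3.52 ± 0.22, adjusted p = 4.16e-21), from a mean of 0.767 to 8.80 CPM, and was back at 1.20 CPM on day 5. The co-receptor LRP6 fell by day 5 (-0.48 ± 0.20, adjusted p = 0.0450), a call lost without library a of day 0 (-0.23, adjusted p = 0.495) or library b of day 5 (adjusted p = 0.277). LGR5, the receptor that marks many Wnt-responsive stem cells, went from 0.152 and 0.0527 CPM to 39.2 and 20.9 CPM on day 4 and 26.5 and 23.2 CPM on day 5 (7.88 ± 0.43, adjusted p = 7.21e-24). RSPO3 rose with it, from 0.0847 and 0.0527 to 4.49 and 3.70 CPM (5.86 ± 0.58, adjusted p = 2.74e-13). LGR5 and RSPO3 were under 1 CPM in both day 0 libraries.

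SP5 stayed above day 0, while AXIN2 ended below it. SP5 was read at 0.677 and 0.299 CPM at day 0, 93.7 and 130.1 CPM on day 1 (7.83 ± 0.26, adjusted p = 9.45e-32) and 53.9 and 68.9 CPM on day 5 (6.96 ± 0.27, adjusted p = 1.65e-29). NOTUM, a secreted enzyme that strips the lipid from Wnt proteins, rose on day 1 from a mean of 1.56 to 15.4 CPM (3.30 ± 0.18, adjusted p = 2.71e-22). AXIN2, which promotes the breakdown of β-catenin, rose on day 2, from 35.3 and 40.1 CPM at day 0 to 52.1 and 48.4 CPM (0.41 ± 0.10, adjusted p = 8.27e-04), and was at 13.0 and 10.8 CPM on day 5 (-1.66 ± 0.11, adjusted p = 2.21e-19). Both targets were thus above day 0 on day 2, and on day 5 SP5 was above and AXIN2 below it. LEF1 rose from 0.525 and 1.02 to 59.7 and 64.3 CPM (6.33 ± 0.30, adjusted p = 5.53e-25), TCF7 rose (0.51 ± 0.16, adjusted p = 0.00587, or 0.117 without library a of day 5) and TCF7L1 fell from a mean of 246 to 137 CPM (-0.84 ± 0.11, adjusted p = 1.70e-09). Among antagonists DKK1 rose to 14.9 and 13.1 CPM from 0.322 and 0.299 CPM (5.49 ± 0.46, adjusted p = 3.13e-15), FRZB rose (1.49 ± 0.13, adjusted p = 1.59e-14), and SFRP1 fell from 472 and 358 to 173 and 158 CPM (-1.32 ± 0.11, adjusted p = 1.23e-14), as did WIF1 (-1.99 ± 0.30, adjusted p = 1.75e-07). DKK4, an antagonist that is itself a Wnt target, was read on day 2 at 7.95 and 7.04 CPM and at 0.0105 and 0.0848 CPM on the days around it. In bulk RNA fewer cells of a type and less RNA per cell cannot be told apart, here and in every comparison that follows.

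In SMADi 8 of 12 receptors rose in WT cells by day 5, FZD5 and FZD2 foremost, and the antagonists went both ways. By day 5, 23 members rose and 14 fell, where 26.8% and 26.7% of all genes did. Of the 12 receptors 8 rose and 1 fell, of the 10 antagonists 3 rose and 3 fell, and of the 19 ligands 6 rose and 4 fell. FZD5 stood at 62.2 and 37.4 CPM at day 0 and 843 and 808 CPM on day 5 (4.05 ± 0.17, adjusted p = 1.20e-27). FZD2 went from 13.6 to 211 and 195 CPM (3.90 ± 0.13, adjusted p = 1.40e-32), and FZD9 fell (-0.85 ± 0.19, adjusted p = 1.54e-04). Neither pair of receptor values overlapped between days. FRZB, a secreted Frizzled-like decoy, went from 4.57 and 3.83 to 127 and 144 CPM (5.01 ± 0.13, adjusted p = 6.14e-38), and SFRP1 from 472 and 358 to 1276 and 1266 CPM (1.61 ± 0.11, adjusted p = 4.43e-18). WIF1 and SFRP5 fell (-2.76 ± 0.35 and -1.94 ± 0.16).

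WNT3 was between 1.40 and 1.95 CPM as a group mean on days 1 to 5 of SMADi. WNT7B, a ligand of the developing nervous system, rose from 0.762 and 0.474 to 4.38 and 6.98 CPM (3.20 ± 0.34, adjusted p = 1.70e-12) and WNT5B from 0.863 and 1.37 to 6.06 and 7.48 CPM (2.61 ± 0.27, adjusted p = 3.47e-12). The day 5 libraries of both lay above those of day 0. WNT5B and WNT5A also led the ligands on day 1 (3.12 ± 0.26 and 2.31 ± 0.27), when 13 members rose and 15 fell beside 22.4% and 22.5% of all genes, or 10 and 7 in a fit on the compared libraries alone. RSPO3 reached 12.4 and 13.0 CPM on day 5 (7.48 ± 0.48, adjusted p = 1.79e-21), RSPO1 rose (3.95 ± 0.24, adjusted p = 7.65e-21), and LGR4 went from 57.8 to 398 and 377 CPM (2.74 ± 0.25, adjusted p = 5.64e-14). SP5 rose only to 6.08 and 4.88 CPM (3.47 ± 0.33, adjusted p = 2.29e-13), while NOTUM (-1.30 ± 0.30) and AXIN2 (-0.38 ± 0.10) fell, AXIN2 with an adjusted p of 0.0532 without library b of day 0. LEF1 rose to 13.5 and 16.2 CPM (4.27 ± 0.33, adjusted p = 8.88e-17), and TCF7 (-1.67 ± 0.19) and TCF7L1 (-1.22 ± 0.11) fell.

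In Endo DKK4, DKK1, SP5, WNT3 and WNT8A rose within a day. The antagonists went both ways: of the 10, 3 rose and 4 fell on day 1. DKK4 had no count in either day 0 library and was read at 270.2 and 241 CPM on day 1 and 318 and 332 CPM on day 2. Against the level that 3 counts over the day 0 group would give, day 1 was at least 9888-fold higher, and on day 3 the mean was 1.58 CPM. DKK1 went from 0.322 and 0.299 to 311 and 213 CPM (9.71 ± 0.40, adjusted p = 4.72e-28) and was at a mean of 6.49 CPM a day later. These 2 antagonists were thus a pulse of 1 or 2 days. SP5 followed a similar course: 0.677 and 0.299 CPM at day 0, 346 and 316 CPM on day 1 (9.39 ± 0.26, adjusted p = 5.17e-36) and a mean of 3.03 CPM on day 5. WNT3 rose from 1.51 and 1.40 to 112 and 111 CPM (6.25 ± 0.19, adjusted p = 1.46e-33), and WNT8A (6.81 ± 0.62, adjusted p = 1.33e-14) and RSPO3 (6.91 ± 0.51, adjusted p = 1.52e-18) rose with it, to means of 4.12 and 8.58 CPM. LEF1 went from 0.525 and 1.02 to 39.3 and 28.7 CPM (5.46 ± 0.31, adjusted p = 6.15e-22) and TCF7 from 10.5 and 10.9 to 80.4 and 61.3 CPM (2.73 ± 0.15, adjusted p = 4.32e-22). In the opposite direction SFRP1 went from a mean of 415 to 19.7 and 22.0 CPM (-4.32 ± 0.13, adjusted p = 8.13e-34), and TCF7L2 (-2.72 ± 0.11), TCF7L1 (-1.79 ± 0.11) and WIF1 (-3.26 ± 0.37) fell. On day 1, 23 members rose and 18 fell, beside 24.2% and 24.2% of all genes. Of 8 streak genes known to respond to Wnt, 8 rose on that day, led by EVX1 (12.48 ± 0.37).

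By day 5 of Endo DKK1 and DKK4 averaged 0.128 and 0.175 CPM, and FZD5, FZD8 and LGR5 were well above day 0. Of the 12 receptors 7 rose and 2 fell, and of the 10 antagonists 3 rose and 4 fell. In all, 21 members were above day 0 and 18 below it, shares close to the 31.2% and 32.2% of all genes. FZD5 stood at 8142 and 7579 CPM against 62.2 and 37.4 CPM at day 0 (7.30 ± 0.20, adjusted p = 3.91e-37), the highest value in CPM of any member in any WT group. FZD8 rose to 468 and 458 CPM (5.58 ± 0.11, adjusted p = 1.28e-42) and LGR5 to 158 and 146 CPM (10.49 ± 0.38, adjusted p = 4.82e-33). All day 5 libraries lay above those of day 0 for these 3 receptors. FRZB rose to 244 and 252 CPM (5.88 ± 0.13, adjusted p = 2.05e-41), whereas SFRP2 went from 448 and 343 CPM to 0.619 and 0.703 CPM (-9.22 ± 0.14, adjusted p = 2.38e-48). SFRP1, after its day 1 low, was at 1642 and 1648 CPM (1.99 ± 0.12, adjusted p = 5.38e-22). RSPO2 had no count on day 5 and averaged 0.560 CPM at day 0, at least 19.2-fold lower. WNT3 remained above day 0 (4.14 ± 0.20, adjusted p = 1.19e-25), while WNT5A, after means of 72.0 and 74.1 CPM on days 1 and 2, was at 0.479 and 0.589 CPM and below day 0 (-3.08 ± 0.48, adjusted p = 1.14e-07). NOTUM (3.14 ± 0.18) remained above day 0, and NKD1 fell below it (-2.30 ± 0.49).

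Set against each other over days 1 to 5, the protocols differed at most members, as they did at many genes. Between BMP4 and SMADi 30 members were higher in BMP4 and 17 lower, beside 30.6% and 29.9% of all genes. WNT6 (7.83 ± 0.27), SP5 (6.04 ± 0.11), LGR5 (5.87 ± 0.47) and DKK1 (5.01 ± 0.30) were higher in BMP4 on the log2 scale, and WNT7B (-4.02 ± 0.20), SFRP1 (-2.89 ± 0.054), FZD7 (-2.11 ± 0.062) and LGR4 (-2.05 ± 0.11) were lower. Between BMP4 and Endo the counts were 30 higher and 18 lower in BMP4, beside 35.6% and 31.8% of all genes. FZD10 (4.58 ± 0.21) and LEF1 (3.84 ± 0.16) were higher in BMP4, and DKK4 (-6.20 ± 0.49), FZD5 (-3.81 ± 0.075) and AXIN2 (-2.08 ± 0.046) were lower. Between SMADi and Endo 25 members were higher in SMADi and 22 lower, beside 34.9% and 32.1%. There WNT7B (6.90 ± 0.31) and RSPO1 (6.08 ± 0.36) were higher, and LGR5 (-8.53 ± 0.28), NOTUM (-5.17 ± 0.090) and WNT3 (-4.61 ± 0.087) lower. NOTUM, SP5 and WNT3 were thus lower in SMADi than in either other protocol, each by its own test on shared SMADi libraries (BMP4 against SMADi 3.37 ± 0.10, 6.04 ± 0.11 and 3.94 ± 0.088). WNT6 had no count on 1 day of SMADi, and RSPO1 and WNT7B none on 1 day of Endo, so their fitted fold changes depend on the prior count.

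Before differentiation few members were called in the edited lines. In KO 0 members rose and 3 fell at day 0, where 1.86% and 3.03% of all genes did. FZD7 was read at 272 and 246 CPM in WT and 215 and 132 CPM in KO (-0.58 ± 0.13, adjusted p = 0.00457), FZD5 at 62.2 and 37.4 CPM in WT and 40.4 and 27.6 in KO (-0.55 ± 0.16, adjusted p = 0.0312) and SFRP2 at 448 and 343 in WT and 328 and 284 in KO (-0.37 ± 0.083, adjusted p = 0.00331). The libraries of the 2 lines did not overlap at FZD7 and SFRP2. At FZD5 they did, although KO was below WT within each letter. In ΔATG 0 rose and 2 fell, beside 2.30% and 3.20% of all genes. They were SFRP2 (319.6 and 280.3 CPM, -0.40 ± 0.083, adjusted p = 0.00112) and FZD2 (9.44 and 10.5 CPM against 17.2 and 9.96 in WT, -0.46 ± 0.13, adjusted p = 0.0274), where WT library b fell among the ΔATG libraries. For the 0 members that rose in edgeR's test, 3 in KO and 4 in ΔATG were higher at an unadjusted p under 0.05, DESeq2 called 1 and 0, and limma voom called 0 in either line. Single libraries decided these counts. In KO the count was 0 when WT library a or KO library b was left out, 5 when WT library b was, and 7 when KO library a was. In ΔATG it was 0 when WT library a was left out, 1 when ΔATG library b was, and 5 when WT library b was. Without WT library a FZD5 stood at -0.13 and SFRP2 at -0.17 in KO, and FZD2 at -0.0045 and SFRP2 at -0.19 in ΔATG, while FZD7 in KO was at -0.27 without KO library b. With the letter as a block within the day, 0 members rose and 5 fell in KO, and 1 rose and 5 fell in ΔATG, whereas a fit on the compared libraries alone called 0 in either line. KO and ΔATG were compared with the same WT libraries, here and throughout.

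In BMP4 the KO cells had less RNA of ligands, of LGR5 and RSPO3 and of SP5 and LEF1 than WT cells, and ΔATG cells lay between. Over days 1 to 5, 12 members rose and 23 fell in KO, beside 13.3% and 15.4% of all genes. The median log2 fold change was -0.19 over members and -0.0046 over all genes. By role the counts that rose and fell were 1 and 9 of 19 ligands, 3 and 4 of 12 receptors, 1 and 2 of 6 R-spondin and LGR genes, 3 and 2 of 10 antagonists, 2 and 4 of 7 feedback targets, and 2 and 2 of 4 TCF/LEF factors. In ΔATG 11 members rose and 18 fell, beside 8.19% and 8.78%. Tested against KO directly, ΔATG was higher at 19 members and lower at 4, beside 8.67% and 4.92%, with 8 ligands and 5 receptors among the higher.

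WNT8A on day 3 was read at 48.3 and 35.3 CPM in WT, against 12.4 and 7.17 in KO and 22.5 and 23.1 in ΔATG. WNT5A on day 4 was at 217 and 142 CPM in WT, against 54.5 and 60.6 in KO and 123 and 99.3 in ΔATG. In both genes the 3 lines were ordered WT, ΔATG, KO with no overlap. Over the 5 days WNT8A fell in KO by 2.01 on the log2 scale (SE 0.113, adjusted p = 1.16e-22), and WNT5A changed by -1.78 ± 0.11, adjusted p = 5.11e-20. ΔATG was above KO by 1.30 ± 0.12, adjusted p = 1.02e-12 at WNT8A and by 1.12 ± 0.12, adjusted p = 8.74e-11 at WNT6. WNT3 was lower in KO already on day 1, at 24.8 and 23.3 CPM against 44.4 and 48.4 in WT, with 26.5 and 25.3 CPM in ΔATG, and averaged -1.37 ± 0.069 over the days in KO. WNT3A and WNT5B fell most in ΔATG (-1.01 ± 0.12, adjusted p = 1.52e-09 and -0.81 ± 0.089, adjusted p = 2.21e-10). WNT9A was the 1 ligand that rose in KO (0.37 ± 0.067, adjusted p = 9.86e-06), from a mean of 2.76 CPM in WT to 4.50 CPM on day 5.

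LGR5 on day 4 was read at 39.2 and 20.9 CPM in WT, against 6.96 and 7.80 in KO and 19.3 and 12.6 in ΔATG, and ΔATG exceeded KO over the days by 1.30 ± 0.33, adjusted p = 0.00353, with an adjusted p of 0.361 without ΔATG library a of day 1 and 0.0534 without ΔATG library a of day 2. RSPO3 on day 3 was at 8.15 and 4.12 CPM in WT, against 0.884 and 0.560 in KO and 3.01 and 2.02 in ΔATG (KO -2.08 ± 0.76, adjusted p = 0.0307, or 0.0878 and 0.288 without WT library a or b of day 1). In both, KO was lowest and ΔATG in the middle without overlap. LGR6 rose in KO (0.43 ± 0.13). Frizzled genes went in both directions. On day 5 FZD5 stood at 77.7 and 64.4 CPM in WT, against 209 and 158 in KO and 139 and 158 in ΔATG (KO 0.61 ± 0.069, adjusted p = 1.89e-10; ΔATG 0.59 ± 0.069). FZD7 rose in both lines (0.41 ± 0.060 and 0.46 ± 0.060), and FZD10 (-1.18 ± 0.11 and -0.54 ± 0.10) and FZD1 (-0.75 ± 0.073 and -0.37 ± 0.071) fell in both. ΔATG was above KO at FZD10 (0.64 ± 0.12, adjusted p = 5.22e-05) and FZD1 (0.39 ± 0.075).

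SP5 on day 2 was at 112 and 126 CPM in WT, against 25.0 and 28.6 in KO and 70.0 and 49.4 in ΔATG, and ΔATG was above KO over the days by 0.49 ± 0.073, adjusted p = 7.89e-07. NOTUM fell in both lines (-1.28 ± 0.079 in KO, -0.78 ± 0.075 in ΔATG). AXIN2, which fell with time in WT, was not called in KO (-0.019 ± 0.047, adjusted p = 0.847). LEF1 on day 5 was at 59.7 and 64.3 CPM in WT, against 19.1 and 22.5 in KO and 43.2 and 36.7 in ΔATG (KO -1.50 ± 0.11, adjusted p = 1.54e-16; ΔATG -0.71 ± 0.11). TCF7L1 and TCF7L2 rose in KO (0.41 ± 0.047 and 0.30 ± 0.045). SP5 and LEF1 thus showed the same order of lines as the ligands, again without overlap, and TCF7L1 the opposite direction. Among antagonists SFRP1 on day 5 was at 173 and 158 CPM in WT, against 466 and 351 in KO and 291 and 352 in ΔATG (KO 0.93 ± 0.051, adjusted p = 6.97e-22; ΔATG 0.84 ± 0.051). SFRP5 rose in both (0.48 ± 0.056 and 0.42 ± 0.056), and DKK1 fell in both (-1.28 ± 0.17 and -0.97 ± 0.17). SFRP1 and FZD7, which fell in WT cells in BMP4, were higher in both edited lines. TCF7L1, which also fell in WT cells, was called higher than WT on 4 days in KO and on 1 day in ΔATG. The sum over the mesoderm markers on day 5 was 272 CPM in WT, against 83.5 in KO and 166 in ΔATG. The mesoderm list shares HAND1 with that for amnion or trophoblast, and the part of cell makeup in these differences was not tested. Of the 8 streak genes known to respond to Wnt, 7 fell in KO, with CDX2 lowest (-2.51 ± 0.19), beside 15.4% of all genes. In ΔATG 7 fell, beside 8.78% of all genes, and 7 were higher in ΔATG than in KO, beside 8.67%.

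**Figure D2:**
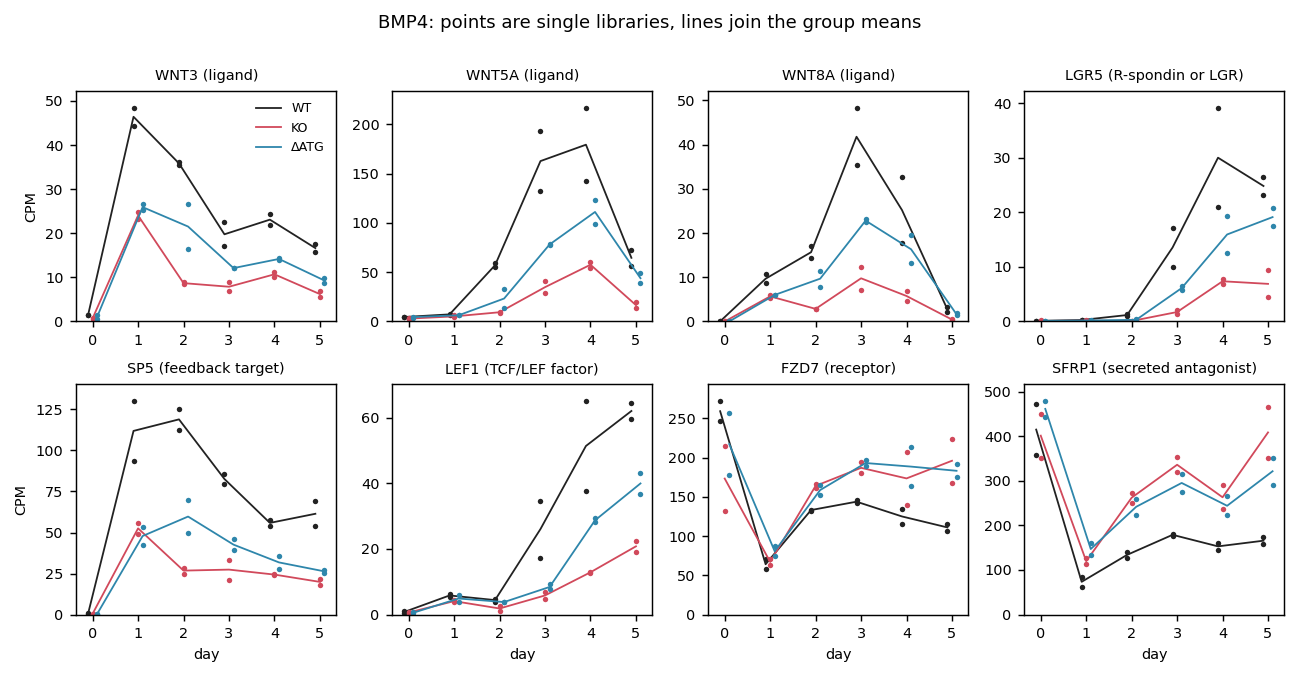
CPM of 8 members at day 0 and on days 1 to 5 of BMP4, with points for the 2 libraries of each group and lines through the means, for WT, KO and ΔATG. WNT3, WNT5A, WNT8A, LGR5, SP5 and LEF1 have their highest mean in WT and lowest in KO on the day of the WT peak, and FZD7 and SFRP1 lie lowest in WT from day 2 on.

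Other pathway genes were tested in KO BMP4 cells as well, where 13.3% of all genes rose and 15.4% fell. Of 16 genes of ligand secretion and the cell surface 4 rose and 8 fell, from TRABD2A, a protease acting on Wnt proteins (0.40 ± 0.060), to SOSTDC1, a secreted BMP and Wnt antagonist (-1.56 ± 0.12). Of 15 genes of the destruction complex and β-catenin 3 rose and 6 fell, with DACT2 highest (0.73 ± 0.086) and DACT1 lowest (-1.13 ± 0.10). Of 8 nuclear cofactors 1 rose and 2 fell, and of 9 planar polarity genes 3 rose and 3 fell.

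In SMADi WNT1, WNT2B, WNT7B, WNT10B and RSPO2 were higher in both edited lines than in WT on day 5, and FZD5, FZD8 and FRZB, which rose in WT cells, were lower. Over days 1 to 5 23 members rose and 18 fell in KO, beside 21.0% and 24.6% of all genes, and 22 rose and 19 fell in ΔATG, beside 20.9% and 24.3%. Of the 19 ligands 8 rose and 3 fell in KO, and of the 12 receptors 7 rose and 4 fell. Of the 10 antagonists 2 rose and 4 fell in KO. The median log2 fold change over members was 0.25 in KO, against -0.0092 over all genes. ΔATG differed from KO at 4 members, all lower in ΔATG: WNT4 (-0.43 ± 0.11), WNT10B (-0.31 ± 0.069), FZD10 (-0.65 ± 0.12) and AXIN2 (-0.19 ± 0.044). Of all genes 0.593% were higher and 0.472% lower in ΔATG than in KO. For the 0 members higher in ΔATG by edgeR's test, 3 had an unadjusted p under 0.05, DESeq2 and limma voom called 0, and a fit on the compared libraries alone called 2, with 5 lower. Without ΔATG library a of day 5 the count was 2, with AXIN2 lost at an adjusted p of 0.0506. The WNT4 call was lost without 10 of the 20 libraries in turn (adjusted p up to 0.517) and that of WNT10B without KO library b of day 2 (adjusted p = 0.113).

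More members, and more of all genes, were called on the later days than on day 1. In KO 7 members rose and 13 fell on day 1, 11 and 11 on day 2, 17 and 11 on day 3, 20 and 16 on day 4, and 22 and 18 on day 5. Of all genes 8.64%, 14.7%, 30.6%, 36.1% and 35.2% were called in either direction on these days. On day 1 the members called were 10 without KO library b and 13 without WT library b. On day 1 WNT3 was below WT in KO (0.437 and 0.0988 CPM against 1.79 and 2.00, -2.88 ± 0.41, adjusted p = 2.52e-07), and so was WNT5B (-1.70 ± 0.22), which by day 4 was above it. On day 2 the leaders were WNT4 (26.8 and 26.7 CPM against 2.57 and 2.56, 3.38 ± 0.23, adjusted p = 1.05e-17) and WNT7B (34.2 and 37.9 CPM against 4.12 and 3.91, 3.17 ± 0.21). The KO libraries lay below WT at WNT3 on day 1 and above it at WNT4 and WNT7B on day 2, with no overlap. On day 3 SP5 was read at 36.9 and 34.0 CPM in KO and 24.4 and 21.8 in ΔATG against 0.385 and 0.389 in WT (KO 6.51 ± 0.29, adjusted p = 4.30e-26). On the same day RSPO2 (4.51 ± 0.41), RSPO1 (2.47 ± 0.14) and FZD1 (1.78 ± 0.18) were higher in KO.

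In KO cells WNT1, WNT2B and WNT7B were at their highest on day 5 and WNT10B on day 4, whereas WNT4 had peaked on day 2. WNT1, a ligand of the dorsal midline of the neural tube, was read on day 5 at 0.0392 and 0.148 CPM in WT, against 39.3 and 37.7 in KO and 14.4 and 19.1 in ΔATG (KO 8.63 ± 0.27, adjusted p = 5.63e-36). WNT2B was at 0.981 and 1.40 CPM in WT, against 45.0 and 72.1 in KO and 31.5 and 30.8 in ΔATG on the same day (KO 5.61 ± 0.22, adjusted p = 8.53e-29). WNT7B stood at 64.9 and 67.1 CPM in KO and 52.0 and 62.7 in ΔATG against 4.38 and 6.98 in WT, and WNT10B on day 4 at 25.4 and 27.9 in KO and 21.0 and 19.5 in ΔATG against 3.85 and 3.72 in WT. In these 4 ligands both edited lines lay above WT in every library of that day. Averaged over the days, WNT10B rose in KO (2.57 ± 0.089, adjusted p = 3.01e-33) and ΔATG (2.26 ± 0.091, adjusted p = 5.41e-30). WNT8B, chosen after its values were seen, was at a mean of 1.58 CPM in WT, against 28.3 in KO and 39.1 in ΔATG on day 5. WNT5A ran against these, falling in KO on day 5 (4.05 and 3.80 CPM against 16.3 and 13.2, -1.91 ± 0.28, adjusted p = 1.23e-07).

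RSPO2, which potentiates canonical ligands, was at 1.92 and 2.11 CPM in WT, against 97.1 and 97.0 in KO and 85.5 and 80.6 in ΔATG on day 5 (over the days 3.58 ± 0.27, adjusted p = 1.51e-16 in KO and 3.46 ± 0.23 in ΔATG). RSPO3, in contrast, was lower in KO on day 5, at 3.31 and 2.20 CPM against 12.4 and 13.0 (-2.21 ± 0.25, adjusted p = 2.59e-11), and LGR4 fell (-1.21 ± 0.24). Among receptors, FZD5 on day 5 was at 843 and 808 CPM in WT, against 39.2 and 34.5 in KO and 61.3 and 58.9 in ΔATG (KO -4.48 ± 0.17, adjusted p = 5.18e-29). On days 2 and 3 FZD5 had not been below WT, with means of 322 CPM in KO and 266 in WT on day 3, so the lower values came late. FZD8 was at 148 and 138 CPM in WT, against 6.38 and 5.90 in KO and 8.29 and 7.90 in ΔATG on day 5 (KO -4.54 ± 0.11, adjusted p = 1.12e-37). The edited lines were far below WT at both receptors. FZD10 rose instead, to 16.7 and 18.4 CPM in KO against 1.24 and 1.83 in WT (3.51 ± 0.19, adjusted p = 1.60e-25), and FZD2 and FZD1 rose over the days in both lines (KO 0.84 ± 0.050 and 0.68 ± 0.082; ΔATG 0.79 ± 0.050 and 0.53 ± 0.083).

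The feedback targets split as well. SP5 on day 4 was at 7.69 and 7.52 CPM in WT, against 73.5 and 60.6 in KO and 49.2 and 49.5 in ΔATG (over the days 1.50 ± 0.43, adjusted p = 0.00275 in KO). On single days SP5 was called higher in KO on 3 and lower on 1. AXIN2 on day 5 was at 28.5 and 29.6 CPM in WT, against 124 and 137 in KO and 88.7 and 104 in ΔATG (KO 2.17 ± 0.10, adjusted p = 2.52e-25). At both genes every library of the edited lines was above the WT libraries of that day. NKD2 and RNF43 fell in both lines (KO -1.40 ± 0.067 and -1.05 ± 0.11; ΔATG -1.43 ± 0.068 and -1.02 ± 0.11). LEF1 on day 5 was at 13.5 and 16.2 CPM in WT, against 56.6 and 56.5 in KO and 46.0 and 45.6 in ΔATG (KO 1.93 ± 0.21, adjusted p = 1.97e-11). TCF7L1 went the other way, with 107 and 104 CPM in WT, against 38.8 and 36.7 in KO and 35.6 and 40.9 in ΔATG (KO over the days -0.91 ± 0.048, adjusted p = 1.91e-23). The LEF1 libraries of the edited lines were above WT and the TCF7L1 libraries below it.

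Among antagonists DKK1 on day 4 was at 0.401 and 0.402 CPM in WT, against 34.9 and 39.0 in KO and 33.0 and 35.3 in ΔATG (KO 6.52 ± 0.42, adjusted p = 1.16e-19). FRZB on day 5 was at 127 and 144 CPM in WT, against 24.7 and 23.6 in KO and 30.4 and 30.7 in ΔATG (KO -2.49 ± 0.10, adjusted p = 1.80e-27), and SFRP5 fell over the days in both lines (-1.69 ± 0.091 and -1.57 ± 0.088). DKK1 was thus higher and FRZB lower in the edited lines with no overlap. On day 5 the sum over the neuroectoderm markers was 460.4 CPM in WT, against 1100.0 in KO and 987 in ΔATG, and over the neural crest markers 71.3, 113 and 121 CPM. The part of cell makeup in the changes of the members was not tested. Other pathway genes were tested in KO too, beside 21.0% of all genes that rose and 24.6% that fell over days 1 to 5. Of 16 secretion and surface genes 6 rose and 5 fell, with WLS, the carrier that brings Wnt proteins to the cell surface, highest (1.97 ± 0.085). Among 15 destruction complex genes 8 rose and 4 fell, between DACT1 (2.00 ± 0.17) and DACT2 (-2.44 ± 0.072). Of the streak genes known to respond to Wnt 0 rose and 4 fell, beside the same shares of all genes.

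**Figure D3:**
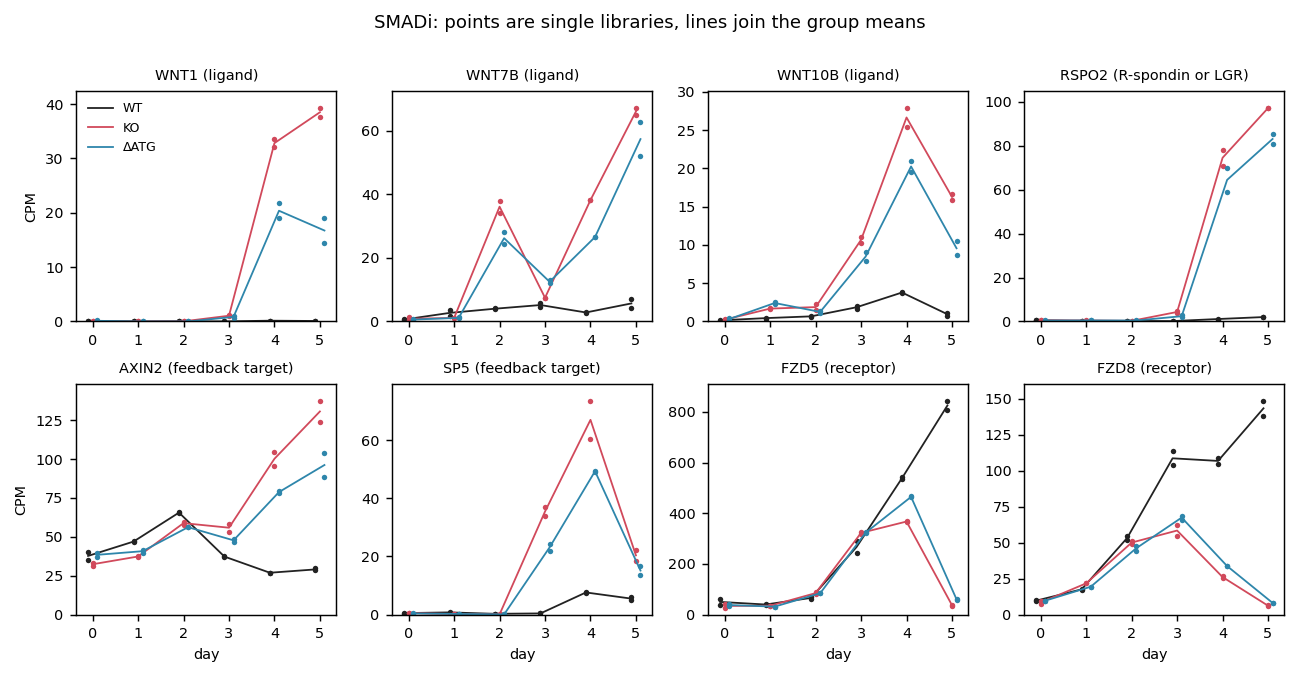
CPM of 8 members at day 0 and on days 1 to 5 of SMADi, with points for the 2 libraries of each group and lines through the means, for WT, KO and ΔATG. WNT1, WNT7B, WNT10B, RSPO2, AXIN2 and SP5 are higher in KO and ΔATG than in WT on days 4 and 5, and FZD5 and FZD8 are far below WT on day 5.

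In Endo more members, and more of all genes, were called in ΔATG than in KO. WNT5A, LEF1 and LGR5 were lowest in ΔATG early on. In KO 5 members rose and 10 fell, beside 6.76% and 8.04% of all genes, or 4 and 5 without WT library a of day 1. In ΔATG 10 rose and 17 fell, beside 16.6% and 17.2%. Against KO, ΔATG was higher at 6 and lower at 11, beside 8.71% and 9.65%. WNT5A on day 1 was read at 80.6 and 63.5 CPM in WT, against 44.8 and 46.2 in KO and 11.3 and 12.4 in ΔATG. Over the days it fell in KO (-0.71 ± 0.25, adjusted p = 0.0422) and ΔATG (-1.38 ± 0.25, adjusted p = 1.03e-05), as did WNT5B (-1.12 ± 0.13 and -1.31 ± 0.13). On day 1 the WNT5A order was WT, KO, ΔATG without overlap. The WNT5A call in KO was lost without 13 of the 20 libraries in turn (adjusted p up to 0.194). WNT8A rose in ΔATG (1.77 ± 0.70, adjusted p = 0.0433), but its day 1 mean was 1.87 CPM there and 4.12 in WT, and the rise rests on days 3 to 5, when WT means were 0.219, 0.0353 and 0 CPM, with a group at 0 the fitted value depends on the prior count, and the call was lost without 10 of the 20 libraries in turn (adjusted p up to 0.113). WNT4 was lower in ΔATG than in KO (-1.15 ± 0.18, adjusted p = 1.29e-06).

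LGR5 on day 2 was at 26.7 and 28.5 CPM in WT, against 15.5 and 16.5 in KO and 1.88 and 1.93 in ΔATG (ΔATG over the days -1.42 ± 0.16, adjusted p = 2.94e-11). By day 5 its mean was 193 CPM in ΔATG and 152 in WT, so the lower values were early. Receptor changes were small: in KO FZD5 (0.25 ± 0.067) rose, and in ΔATG FZD9 (0.50 ± 0.12) rose and FZD2 (-0.60 ± 0.053) fell. DKK1 on day 1, chosen after its values were seen, was at 311 and 213 CPM in WT, against 275 and 321 in KO and 94.3 and 113 in ΔATG. The ΔATG libraries were below WT and KO there. NOTUM fell in both lines (-0.50 ± 0.058 and -1.33 ± 0.060), from a day 3 mean of 32.1 CPM in WT to 19.8 and 11.2. NKD1 fell in ΔATG (-0.53 ± 0.21, adjusted p = 0.0440), with 111 and 125 CPM on day 1 against 243 and 196 in WT, a call lost without 14 of the 20 libraries in turn (adjusted p up to 0.134). LEF1 on day 1 was at 39.3 and 28.7 CPM in WT, against 24.3 and 21.8 in KO and 12.8 and 12.4 in ΔATG (ΔATG -1.27 ± 0.39, adjusted p = 0.00757, or 0.0625 without WT library a of day 5), and TCF7 fell in ΔATG (-0.40 ± 0.064). LEF1 thus had the order of WNT5A. SP5 rose in ΔATG over the days (0.29 ± 0.081, adjusted p = 0.00318) although its day 1 libraries were at 249 and 273 CPM against 346 and 316 in WT, and its day 5 libraries at 10.2 and 11.6 CPM against 2.95 and 3.10. SFRP2, which WT cells lose, was higher in ΔATG (0.81 ± 0.059, adjusted p = 5.88e-17), with 2.49 and 2.76 CPM on day 5 against 0.619 and 0.703. The sum over the endoderm markers on day 5 was 13563 CPM in WT, against 13196 in KO and 8725 in ΔATG, and its part in these differences was not tested.

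**Figure D4:**
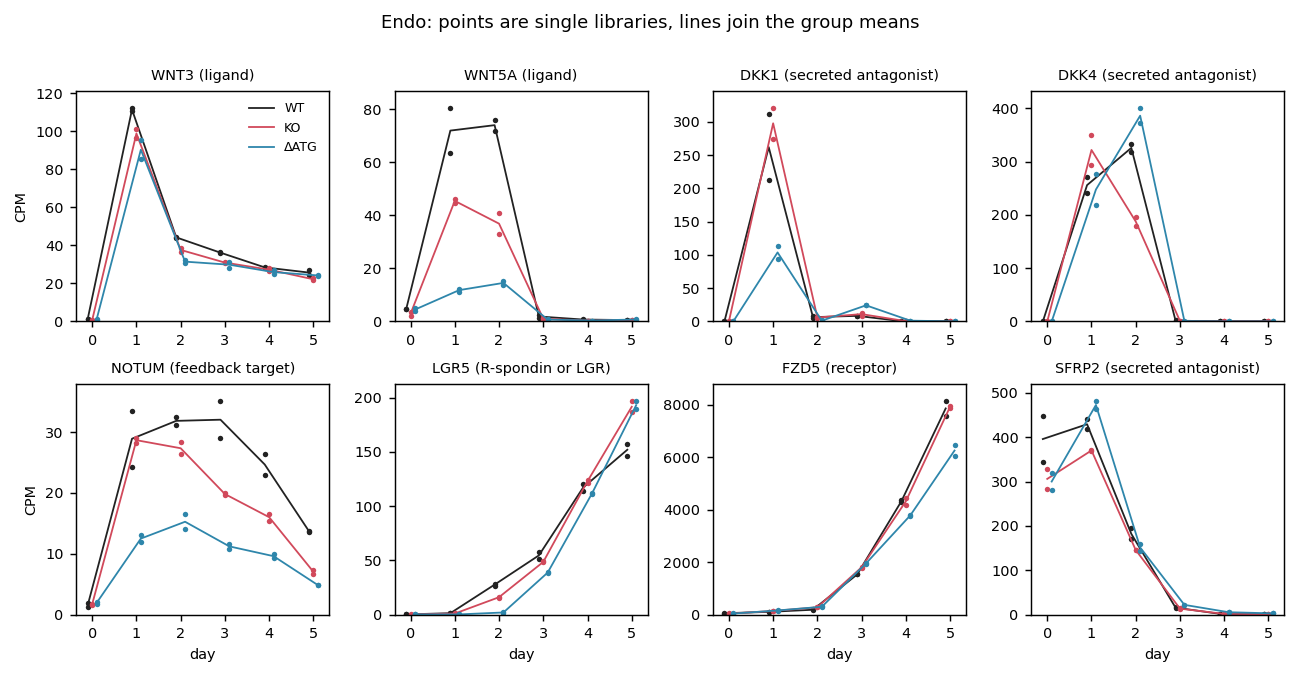
CPM of 8 members at day 0 and on days 1 to 5 of Endo, with points for the 2 libraries of each group and lines through the means, for WT, KO and ΔATG. DKK1, DKK4, WNT3 and WNT5A peak on days 1 or 2, FZD5 climbs to day 5 in all lines, and ΔATG lies lowest at WNT5A, DKK1 and NOTUM on day 1 and at LGR5 on day 2.

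The difference between KO and WT itself differed between BMP4 and SMADi at most members. Tested as an interaction over days 1 to 5, it was higher in BMP4 at 15 members and lower at 27, beside 22.8% and 19.3% of all genes. Among the 19 ligands it was lower in BMP4 at 12 and higher at 1. DKK1 fell in KO in BMP4 (-1.28 ± 0.17) and rose in SMADi (2.93 ± 0.65, adjusted p = 0.107 without KO library b of day 1), a difference of -4.21 ± 0.73, adjusted p = 2.60e-06. SP5 fell in BMP4 and rose in SMADi (difference -3.03 ± 0.56, adjusted p = 7.75e-06), and so did WNT8A, WNT5B, LEF1 and FZD10. SFRP5, FRZB, TCF7L1 and FZD5 went the opposite way, rising in BMP4 and falling in SMADi. At FZD5 the difference was 1.53 ± 0.098, adjusted p = 1.16e-19. The rises in SMADi are means over days and did not hold on every day. There KO was called higher on 3 days and lower on 1 at SP5 and LEF1. At WNT5B and FZD10 it was called higher on 2 days and lower on 1, while WNT8A and DKK1 were called lower on 0 days. Between BMP4 and Endo the KO difference was higher in BMP4 at 8 members and lower at 16, beside 9.00% and 11.2%, and only NKD2, a membrane-bound inhibitor of Dishevelled, was called in opposite directions in the 2 protocols (0.18 ± 0.062 in BMP4, -0.43 ± 0.062 in Endo). The NKD2 call in BMP4 was lost without 8 of the 20 libraries in turn, at an adjusted p of up to 0.0980.

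Among the construct cells, which the labels give as undifferentiated, the middle libraries labelled lncPRESS1 and lncSIRP stood apart from all others. Their sums over the fibroblast or stroma markers were 4773 and 6218 CPM against 87.0 in vector, over the mesoderm markers 548 and 410.2 against 21.7, and over the pluripotency markers 282 and 332 against 2898. Most of the mesoderm sums was HAND1, at 462 and 338 CPM against 0.00787 in vector, a gene also listed for amnion or trophoblast. Results for these constructs are therefore given by stage and with and without the middle stage, and what part the differing makeup had in the members' values was not tested. Across the 3 stages 25 of 55 members rose and 9 fell with lncPRESS1, beside 21.4% and 24.4% of all genes, and 24 rose and 10 fell with lncSIRP, beside 23.8% and 26.4%. Without the middle stage the counts were 6 and 5 with lncPRESS1, beside 7.54% and 7.9% of all genes, and 10 and 11 with lncSIRP, beside 13.1% and 13.9%. All 3 constructs were compared with the same vector libraries.

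At the middle stage 36 members rose and 10 fell with lncPRESS1, where 58.1% of all genes were called, and 37 rose and 10 fell with lncSIRP, where 60.4% were. WNT6 had no count in the vector libraries and was read at 21.1 and 21.0 CPM with lncPRESS1 and 15.0 and 15.8 with lncSIRP. RSPO3 was at 0.0550 and 0.173 CPM with vector, 203 and 208 with lncPRESS1 and 212 and 213 with lncSIRP (10.73 ± 0.23, adjusted p = 1.30e-21 and 10.78 ± 0.23, adjusted p = 1.12e-21). LEF1 was at 1.47 and 2.05 CPM with vector, 156 and 145 with lncPRESS1 and 110.3 and 127 with lncSIRP (lncPRESS1 6.41 ± 0.21, adjusted p = 4.84e-14). At these 3 genes both constructs lay far above vector in every library. RSPO2 (9.56 ± 0.23 and 9.94 ± 0.23) and DKK1 (6.78 ± 0.25 and 7.40 ± 0.24) rose with both, as did FZD1 and FZD2, with FZD2 at 89.6 and 81.2 CPM with lncPRESS1 and 107 and 104 with lncSIRP against 7.03 and 9.93 in vector. DKK2 had no count in vector and averaged 12.7 and 11.3 CPM with the 2 constructs. SFRP2, at 506 and 613 CPM in vector, was at 41.5 and 45.8 with lncPRESS1 and 43.9 and 40.2 with lncSIRP (-3.68 ± 0.16, adjusted p = 1.14e-12 and -3.73 ± 0.15, adjusted p = 9.06e-13), and LGR6 (-4.57 ± 0.54 and -3.61 ± 0.45) and SFRP5 fell too.

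At the early stage lncPRESS1 libraries differed from vector at 1 member, FZD7 (70.5 and 72.8 CPM against 109.7 and 109.9, -0.62 ± 0.086, adjusted p = 0.00622), where 0.412% of all genes were called. That count was 2 by DESeq2, 0 in a fit on the compared libraries alone, 0 without either vector library and 7 without lncPRESS1 library a. With 0 members higher in edgeR's test, 3 had an unadjusted p under 0.05, and DESeq2 and limma voom called 0 in that direction. With lncSIRP 1 rose and 6 fell, beside 10.8% called. They included FZD3 (-1.33 ± 0.22, adjusted p = 0.00207), WIF1 (-1.82 ± 0.40) and TCF7L1 (0.45 ± 0.095). DESeq2 called 15 and the fit on the compared libraries alone 20. Without lncSIRP library a the members called were 4, and without lncSIRP library b or vector library a they were 3. The WIF1 and TCF7L1 calls were each lost without 3 of the 4 libraries, at adjusted p-values of up to 0.107 and 0.0872. At the late stage, where the sums over the pluripotency markers were 2789.8 CPM with vector, 3133 with lncPRESS1 and 3172 with lncSIRP, SP5, AXIN2 and LEF1 were higher with both constructs. Of the 7 feedback targets 2 rose and 0 fell with lncPRESS1, and 2 and 0 with lncSIRP. SP5 was read at 7.37 and 6.78 CPM with vector, 54.7 and 18.5 with lncPRESS1 and 52.2 and 40.9 with lncSIRP (2.37 ± 0.36, adjusted p = 4.90e-04 and 2.71 ± 0.36, adjusted p = 2.17e-04), with lncPRESS1 at 1.38 without its library a. AXIN2 was at 31.6 and 32.1 CPM with vector, 65.2 and 66.4 with lncPRESS1 and 75.8 and 67.6 with lncSIRP (1.05 ± 0.17 and 1.17 ± 0.17). LEF1 was at 1.64 and 2.42 CPM with vector, 5.74 and 4.89 with lncPRESS1 and 6.61 and 7.17 with lncSIRP (1.40 ± 0.26 and 1.77 ± 0.25). At these 3 genes the vector libraries lay below all libraries of both constructs. FZD10 (1.68 ± 0.19 and 1.83 ± 0.19), FZD8 and DKK1 (2.63 ± 0.46 and 3.76 ± 0.39) rose and FZD7 fell with both. Of the 55 members 11 rose and 8 fell with lncPRESS1 and 12 and 3 with lncSIRP, beside 22.6% and 21.4% of all genes called. With lncPRESS1 the members called were 9 and 10 without its library a or b and 7 and 11 without vector library a or b, and with lncSIRP they were 9 without vector library a.

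With the ΔATG construct members were called at each stage, led by lower WNT3 and SP5 and higher SFRP1. Across stages 11 of 55 members rose and 21 fell, beside 11.3% and 14.5% of all genes, and 11 rose and 19 fell without the middle stage. By stage, 11 rose and 12 fell early, 8 and 10 in the middle stage and 8 and 15 late, where 26.3%, 7.36% and 21.1% of all genes were called. The sample label of early ΔATG library a ends in Redo, and what was redone is not given. Early LRP5 moved from 0.45 to 0.23 on the log2 scale without that library, and its call was lost. Early LGR4 moved from -1.20 to -0.75 without library a and to -1.87 without library b. A fit on the compared libraries alone called 12 early and 7 in the middle stage. The members called were 10 and 11 in the middle stage without vector library a or b, and 14 late without ΔATG library a or vector library a. WNT3 was read at 6.00 and 4.22 CPM early, 5.23 and 5.16 in the middle and 3.92 and 4.08 late, against 30.0 and 29.7 early, 29.9 and 27.9 in the middle and 32.8 and 35.1 CPM late with vector (-2.70 ± 0.11, adjusted p = 5.08e-11). SP5 was at 1.49 and 0.801 CPM early, 0.901 and 0.298 in the middle and 0.183 and 0.119 late, against 5.71 and 6.70, then 5.73 and 3.76 and then 7.37 and 6.78 with vector (-3.66 ± 0.40, adjusted p = 2.54e-06). At both genes every ΔATG library was below every vector library of its stage. WNT5B (-1.35 ± 0.14), FZD5 (-1.51 ± 0.098) and FZD10 (-1.58 ± 0.17) fell. SFRP1 rose, from 50.8 and 58.1 CPM with vector to 280.1 and 306 at the late stage (across stages 2.19 ± 0.16, adjusted p = 2.83e-08). WIF1 (1.84 ± 0.15, adjusted p = 8.61e-08), FZD7 (0.79 ± 0.049) and TCF7L2 (0.86 ± 0.059) rose as well. DKK4 had no count in any of the 6 ΔATG libraries and averaged 1.82, 1.35 and 1.04 CPM in vector. Of the streak genes known to respond to Wnt 4 of 8 fell and 0 rose with the ΔATG construct, with TBXT lowest (-3.66 ± 0.33). SP5 was thus lower than vector with the ΔATG construct and, at the late stage, higher with lncPRESS1 and lncSIRP; the sums over the pluripotency markers with the ΔATG construct were 2790.0, 2239 and 2441 CPM from early to late.

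**Figure D5:**
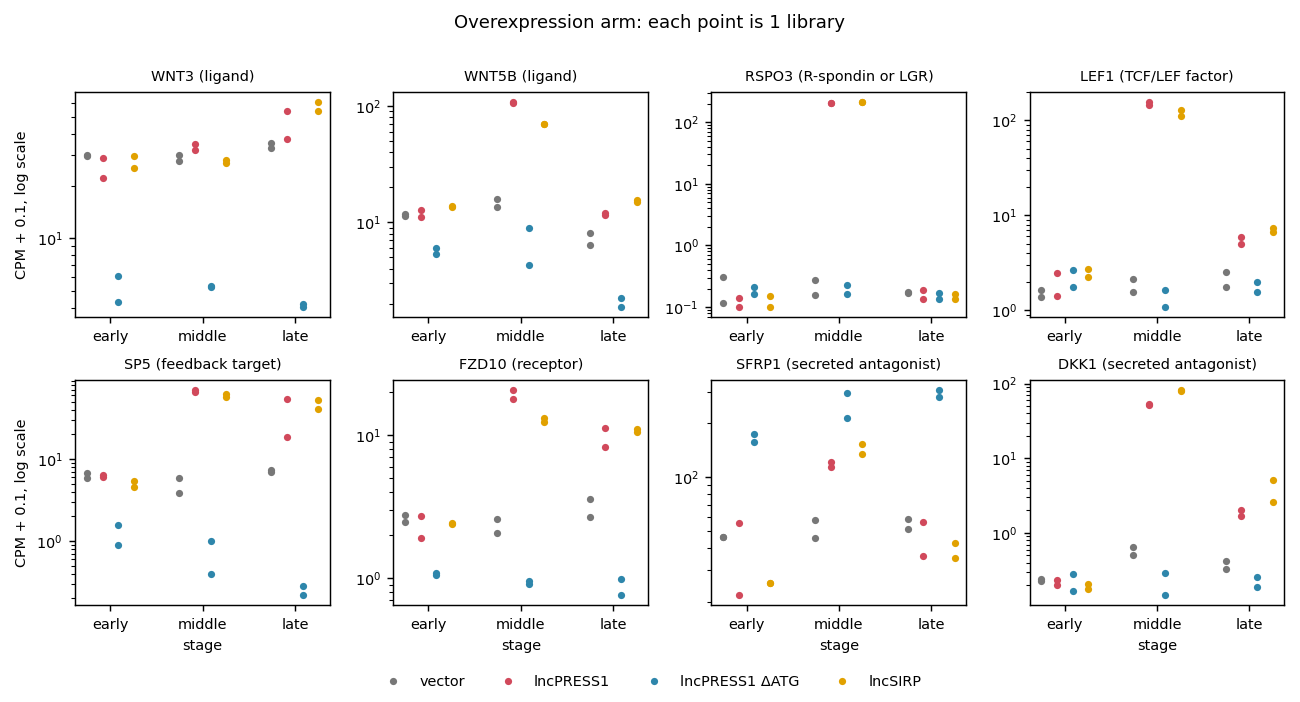
CPM + 0.1 on a log axis for 8 members in the construct libraries at the early, middle and late stage, with a point for each of the 2 libraries of a group. The middle libraries labelled lncPRESS1 and lncSIRP stand apart at RSPO3, LEF1 and DKK1, and the ΔATG construct lies lowest at WNT3 and SP5 and highest at SFRP1 at each stage.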

How the data were processed

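Bulk RNA was sequenced in 120 libraries, 2 to a group. The deposited table holds estimated counts per gene, scaled for gene length per the labels, so values need not be whole. The build was GRCh38 per the submitters' processing notes, and no source used here names the aligner, counter or annotation version. Counts were rounded to whole numbers. The differentiation set (96 libraries, 48 groups) and the construct set (24 libraries, 12 groups) were filtered with filterByExpr, scaled with TMM factors and fitted separately in edgeR 4.0.16 under R 4.3.3, with 1 mean per group, so levels in the 2 sets are not on a common scale. Contrasts were tested two-sided with the quasi-likelihood test over all genes at an adjusted p under 0.05 (Benjamini-Hochberg). Contrasts over days 1 to 5 weight each day equally. CPM used the TMM factors, and lengths were the exon unions of GENCODE 29.

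Tested on simulated data for the KO against WT comparison over days 1 to 5 of BMP4 with 25821 genes, the fit recovered 93 of 100 genes changed by 0.5 and 100 of 100 changed by 1 on the log2 scale. There all genes had the same dispersion, libraries were independent, and only genes averaging 1 CPM or more were changed. Recovery at noisier or lower genes, with correlated letters, or in contrasts of single days or stages, was therefore not measured. In each comparison and role the members named were up to 2 with the highest and 2 with the lowest log2 fold changes among those called with a mean of at least 1 CPM. Members and gene lists were chosen with earlier results of these data known. Letters a and b recur across groups. Deviations of same-lettered libraries from their group means correlated by more than 0.1 in 17 of 18 pairs of groups at day 0 and in BMP4, the exception being KO with ΔATG on day 5 (0.0972), in 0 of 15 in SMADi, in 1 of 15 in Endo and in 2 of 18 in the construct set. The labels do not say what a letter stands for, and the numbers pair samples by this check at day 0 and on days 1 to 4 of BMP4. Alternatives were DESeq2 size factors, DESeq2 1.42.0, limma voom (limma 3.58.1), no filter on low counts, a fit on the groups compared, the letter as a block and each library left out. The block within each day or stage, the construct set without its middle stage and the reruns for single days were chosen after seeing the data.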

Additional observations from a re-analysis of the deposited data

Results flagged for a closer look

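Differences between protocols in the KO effect, each tested as an interaction over days 1 to 5 in edgeR with adjusted p-values under 0.05 and with KO called in opposite directions in the 2 protocols, were found at 17 points. Between BMP4 and SMADi they were negative, that is lower in BMP4, for the ligands WNT8A (-3.16 on the log2 scale) and WNT5B (-2.94), for the receptors FZD10 (-1.84), FZD1 (-1.43) and FZD2 (-1.20), for the antagonist DKK1 (-4.21), for the targets SP5 (-3.03) and NKD1 (-1.68) and for LEF1 (-2.02). They were positive for FZD5 (1.53), LGR6 (1.11), SFRP5 (2.16), FRZB (1.37), NKD2 (1.58), TCF7L1 (1.32) and TCF7L2 (0.57). Between BMP4 and Endo the difference at NKD2 was 0.60. The share of all genes called in opposite directions in this way was not computed, so the 17 points cannot be set against a background. WNT8A, DKK1 and SP5 had the widest errors of the 17 (SE 0.62, 0.73 and 0.56), and the smallest of the adjusted p-values was 3.50e-24, at SFRP5.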

How the results depend on the processing

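Over 39 comparisons, single days and stages, no alternative other than those given here moved the count of members called by more than 1.5 times. Day 0 moved most often. With KO the main count of 3 became 5 by DESeq2 and 5 with the replicate block within the day, and 0 in a fit on the compared libraries alone. With ΔATG the main count of 2 became 1 by limma voom, 1 with no filter on low counts, 0 on the compared libraries alone and 6 with the replicate block within the day. On the compared libraries alone the counts were also 7 for ΔATG against KO in SMADi, 19 and 17 for day 1 of BMP4 and SMADi in WT, 0 for lncPRESS1 and 20 for lncSIRP early, and 12 and 7 for the ΔATG construct early and in the middle stage. DESeq2 called 2 members for lncPRESS1 and 15 for lncSIRP early. Without the middle stage 11 members were called with lncPRESS1 and 21 with lncSIRP. That setting turned the sign, with lncPRESS1, of CELSR3 (0.027), DACT3 (-0.74), FZD2 (-0.039), RSPO3 (-1.31), TCF7L1 (0.14), WLS (-0.44) and WNT5A (-0.39), and with lncSIRP, of FRZB (-0.32), RSPO2 (-0.083), RSPO3 (-1.29), TCF7L1 (0.24), TRABD2A (0.10), WLS (-0.26) and WNT11 (-0.60). The cause of these changes was not tested.

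Leaving out each library in turn, the lone library left in a group being assumed to vary like the other groups, gave counts of 0 to 7 for KO and 0 to 5 for ΔATG at day 0, 2 to 4 for ΔATG against KO in SMADi, 9 to 15 for KO in Endo and 10 to 14 for KO on day 1 of SMADi. In the construct set they were 0 to 7 early and 7 to 11 late for lncPRESS1, 3 to 5 early and 9 to 15 late for lncSIRP, and 10 to 14 in the middle stage and 14 to 18 late for the ΔATG construct. Of 894 named results, the replicate block over a whole set ended 2 calls and that within each day or stage 15. In the latter WNT5A in KO in Endo, where letters do not pair, had an adjusted p of 0.129. DESeq2 ended 7 calls, DESeq2 size factors 5, limma voom 16, no filter 43 and the fit on the compared libraries 92, among them RSPO3 in KO in BMP4 (adjusted p = 0.101), NKD2 in KO in BMP4 (0.0911) and LRP6 by day 5 of BMP4 (0.101). Of the 18 members among the 3 highest of their role per length, 17 were so by CPM without length. With 2 libraries a group, small changes and genes near 0 are the least certain.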

Other observations

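The vector libraries of the construct set, undifferentiated by label, held members at levels unlike those of WT cells at day 0. WNT3 averaged 29.9, 28.9 and 33.9 CPM from the early to the late stage, against 1.46 CPM in WT at day 0. SP5 averaged 6.20, 4.75 and 7.08 CPM against 0.488, and FZD5 194, 202 and 211 CPM against 49.8. SFRP1 lay the other way, at 46.0, 51.4 and 54.4 CPM against 415, as did TCF7L2, at 48.6, 42.8 and 42.9 CPM against 105. The ΔATG construct libraries lay between these at 4 of the 5 genes at the late stage, with WNT3 at 4.00 CPM, FZD5 at 108, SFRP1 at 293 and TCF7L2 at 76.7, while SP5, at 0.151 CPM, was below both. The 2 sets were scaled separately and compared by no test, and set and cells cannot be told apart. These 5 genes were chosen after their values were seen.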
